A study of Mus musculus with 12 samples.

Results

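A set of 34 genes of intestinal smooth muscle and its pacemaker cells was examined in whole colon of mice, out of 40050 genes in the count table. Members were taken by symbol: 31 belong to smooth muscle and 3, Kit, Ano1 and Etv1, to the pacemaker cells. Each symbol matched 1 row, and all 34 passed the filter on low values (10 or more normalized counts on average across 12 libraries). A normalized count is the number of reads of a gene divided by a factor of its library.

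Colon RNA was sequenced from 4 groups of 3 libraries each. KO_DSS and KO_H2O are Glul∆Lyz2 mice, in which Glul is deleted in myeloid cells, given dextran sulfate sodium (DSS) and plain water. WT_DSS and WT_H2O are Glul f/f littermates, also on DSS and on water. The label WT therefore stands for mice with floxed alleles, and the Lyz2 driver aims the deletion at myeloid cells, not at muscle. Glul encodes glutamine synthetase, and DSS in drinking water damages the epithelium and sets off colitis. The sources used here do not give the age or sex of the mice, the DSS dose or its duration, and do not say whether a library is 1 animal. A p-value here weighs a difference against the scatter among these libraries, some of which may be technical.

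The muscle coat of the colon consists of smooth muscle layers that contract when calcium activates myosin light chain kinase and myosin pulls on actin filaments. Contraction is paced by interstitial cells of Cajal, which depend on the receptor Kit and set the electrical rhythm through the chloride channel Ano1. In smooth muscle the coactivator myocardin (Myocd) binds serum response factor at CArG boxes and switches on the contractile genes. Whole tissue was sequenced, so fewer muscle cells in a piece of colon and less RNA per muscle cell cannot be told apart.

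Libraries held between 14661803 and 41172418 reads assigned to genes, with the lowest depth in KO_DSS 3. Glul, the targeted gene, had 4225, 3273 and 6723 normalized counts in KO_DSS 1, 2 and 3, against 7372, 7895 and 18267 in WT_DSS 1, 2 and 4. On water it had 1655, 5618 and 2725 in KO_H2O 1, 2 and 3, against 7852, 7709 and 2261 in WT_H2O 1, 2 and 3. Groups overlapped on water and not on DSS, and neither difference passed in limma (log2 difference -0.81 ± 0.56, SE, adjusted p = 1 on water, and -1.17 ± 0.56, adjusted p = 0.952 on DSS). The epithelial genes Epcam, Cdh1 and Vil1 each had at least 7885 normalized counts in every library. The skeletal muscle markers, of which 15 of 18 were in the table, summed to between 1.75 and 16.1 FPKM over the 12 libraries, with Pvalb at 0 in all of them.

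WT_H2O 2 and WT_H2O 3 stood apart for the muscle genes, in opposite directions, and are named before any comparison. WT_H2O 3 was the lowest of its group for 31 of 31 muscle genes, and WT_H2O 2 was the highest for 31 of 31. The mean deviation of the 31 muscle genes from their 12-library means, on the log2 scale, was 0.04, -0.69 and 0.46 in KO_DSS 1, 2 and 3 and -0.52, -0.36 and -0.39 in WT_DSS 1, 2 and 4. It was 0.15, 0.27 and 0.88 in KO_H2O 1, 2 and 3 and 0.25, 1.05 and -1.15 in WT_H2O 1, 2 and 3. Muscle genes also moved together in other groups, with KO_H2O 3 the highest of its group for 28 genes, KO_DSS 3 for 23 and KO_DSS 2 the lowest for 26. The f/f colons on water held both the highest and the lowest library of the study, and every other library lay between them. The median within-group SD of a muscle gene was 1.08 in WT_H2O, against 0.32 for all tested genes in that group.

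**Figure D1:**
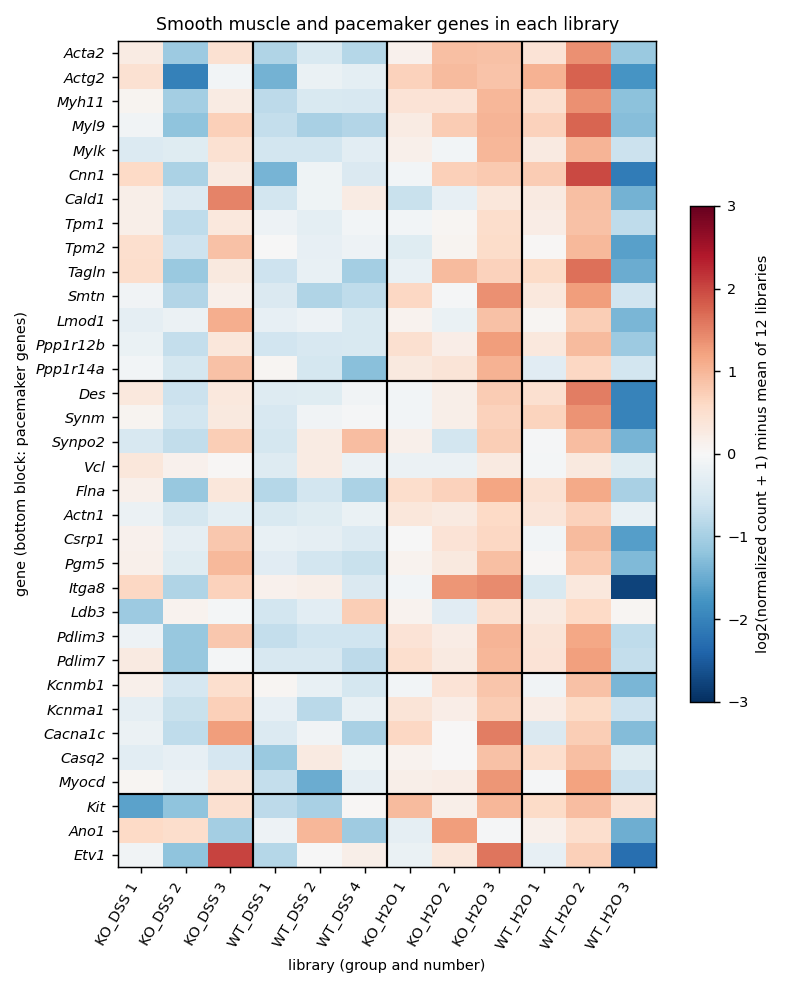
Log2(normalized count + 1) of each gene minus its mean over the 12 libraries (colour), with genes as rows and libraries as columns in the 4 groups. Row blocks are actin and myosin genes, filament and adhesion genes, excitation and regulation genes, and the 3 pacemaker genes at the bottom. WT_H2O 2 and WT_H2O 3 form the highest and the lowest column of their group for all 31 muscle genes, while Kit stays above its mean in WT_H2O 3.

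Markers of other cell types also differed between the WT_H2O libraries. The summed FPKM (fragments scaled to gene length and library depth, a level that can be compared between genes) of 17 enteric neuron and glia markers lay between 21.4 and 85.9 in KO_DSS, 25.3 and 42.2 in WT_DSS, and 47.8 and 131 in KO_H2O, and was 16.1, 47.7 and 7.25 in WT_H2O 1, 2 and 3. In those 3 libraries 14 fibroblast markers summed to 280.1, 319.9 and 118 FPKM, and 15 epithelial markers to 8919, 7946 and 11498 FPKM. WT_H2O 3 was thus lowest of its group for nerve and fibroblast markers and highest for epithelial ones. Car1, a colonocyte carbonic anhydrase, had 54742, 3333 and 98493 normalized counts in KO_H2O 1, 2 and 3, against 10468, 10415 and 159783 in WT_H2O 1, 2 and 3. The part of these cell types in the muscle values was not tested.

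The members covered a wide span of levels. Over the 12 libraries the mean level was highest for Acta2, the smooth muscle alpha actin, at 397 FPKM, followed by the enteric gamma actin Actg2 at 283, Tagln (transgelin) at 252 and the intermediate filament gene Des (desmin) at 205. Myosin heavy chain Myh11 averaged 180 FPKM. Among the pacemaker genes Ano1 averaged 17.5, Kit 9.18 and Etv1 1.44 FPKM. Myocd averaged 1.99, and Itga8, an integrin subunit, was lowest at 1.10 FPKM. The libraries spanned 145 to 873 FPKM for Acta2 and 49.7 to 738 FPKM for Actg2, so that the order of these neighbours was within their spread. Actins share most of their coding sequence, and how reads that match both were counted is not given in the sources used here, so the split between Acta2 and Actg2 is uncertain.

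DSS was compared with water over both genotypes, with the DSS effect averaged, to describe the muscle coat in DSS colitis. Few muscle genes passed the threshold. Of 31 muscle genes 2 fell and 0 rose, Actn1 and Smtn, and 8 fell and 0 rose at an unadjusted p under 0.05 (limma, adjusted p by Benjamini-Hochberg over 23263 genes, threshold 0.05). Of all genes tested 14.6% fell and 13% rose, and 21.8% fell and 18.9% rose at an unadjusted p under 0.05, so the 6.45% of muscle genes that fell lay below the background. The log2 differences were negative for 26 of 31 muscle genes (83.9%), against 53.6% of all genes, with a median of -0.50 against -0.07. They ranged from -1.18 for Actg2 to 0.27 for Cald1. Of the 3 pacemaker genes Kit fell, and the estimates for Ano1 and Etv1 were near 0 with wide intervals.

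Actn1 (chromosome 12, 80167547 to 80260371, minus strand, GRCm38) encodes alpha-actinin 1, which cross-links actin at adhesion sites in muscle and in many other cells. It had 3021, 2344 and 2767 normalized counts in KO_DSS 1, 2 and 3, against 4281, 4094 and 5110 in KO_H2O 1, 2 and 3. In f/f littermates it had 2455, 2619 and 2945 in WT_DSS 1, 2 and 4, against 4395, 5443 and 2905 in WT_H2O 1, 2 and 3. The knockout groups did not overlap, and in f/f mice WT_H2O 3 lay within the DSS range. The averaged log2 difference was -0.68 ± 0.16 (SE, adjusted p = 0.0112, limma), and it passed without any 1 of the 12 libraries (adjusted p from 0.00444 to 0.032).

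Smtn (chromosome 11, 3517523 to 3540612, minus strand) encodes smoothelin, an actin-binding protein of contractile smooth muscle. Its normalized counts were 2940, 1727 and 3506 in KO_DSS 1, 2 and 3, against 4878, 3124 and 8192 in KO_H2O 1, 2 and 3. They were 2334, 1696 and 1883 in WT_DSS 1, 2 and 4, against 3963, 7542 and 2148 in WT_H2O 1, 2 and 3. Both pairs of groups overlapped through 1 water library. The averaged log2 difference was -0.99 ± 0.32 (SE, adjusted p = 0.0391, limma). It passed without KO_DSS 3, KO_H2O 2 or WT_H2O 3 and did not pass without any 1 of the other 9 libraries (adjusted p up to 0.0936).

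**Figure D2:**
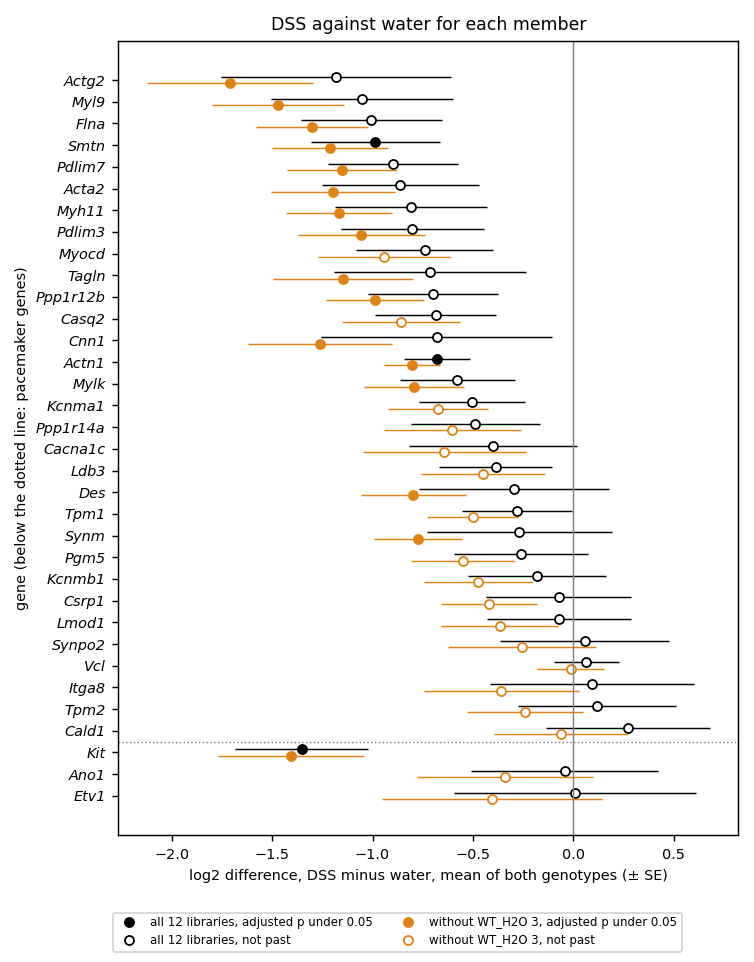
Log2 difference of DSS minus water, averaged over genotypes, with its SE (x axis) for each of the 34 genes (y axis), from all 12 libraries in black and without WT_H2O 3 in orange. Filled circles had an adjusted p under 0.05. Actn1, Smtn and Kit are filled in black, and 15 muscle genes and Kit are filled in orange, with every orange muscle value to the left of its black one. That shift follows from leaving out the library that was lowest of its water group for all 31 muscle genes. Without WT_H2O 2, not drawn, 1 muscle gene passed and the median was -0.31.

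How many muscle genes passed turned on WT_H2O 3. Without it, 15 of 31 muscle genes fell and 0 rose, against 11.7% of all genes that fell and 10.9% that rose without that library, and all 31 log2 differences were negative with a median of -0.79. WT_H2O 3 was singled out by these same muscle values, as the lowest of its group for all 31. Leaving it out therefore had to lower every averaged difference. For Myh11 the SE narrowed too, from 0.38 to 0.26, so the larger count is no separate support for a fall. The 15 were Actg2, Myl9, Flna, Cnn1, Smtn, Acta2, Myh11, Pdlim7, Tagln, Pdlim3, Ppp1r12b, Actn1, Des, Mylk and Synm. Actg2 was at -1.71 ± 0.41 (SE, adjusted p = 0.016), Myl9 at -1.47 ± 0.33 (adjusted p = 0.0117) and Myh11 at -1.17 ± 0.26 (adjusted p = 0.0125) by limma. Without KO_DSS 3 the count was 5 (against 15.3% of all genes that fell) with a median of -0.69, and without WT_H2O 2 it was 1 (against 10.4% of all genes that fell), with a median of -0.31 and 21 of 31 negative. It was also 1 without KO_DSS 2, KO_H2O 1, KO_H2O 3, WT_DSS 1, WT_DSS 2, WT_DSS 4 or WT_H2O 1, where between 9.38% and 14.1% of all genes fell.

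The actin and myosin machinery held the largest negative value among the muscle genes, that of Actg2. This actin had 13114, 2337 and 8966 normalized counts in KO_DSS 1, 2 and 3, against 15447, 18360 and 17269 in KO_H2O 1, 2 and 3. It had 3571, 8263 and 7809 in WT_DSS 1, 2 and 4, against 19582, 32406 and 2801 in WT_H2O 1, 2 and 3. The knockout DSS libraries lay below all their water libraries, while in f/f mice WT_H2O 3 lay below every WT_DSS library. Averaged, Actg2 was at -1.18 ± 0.57 (SE, adjusted p = 0.143, limma). Acta2, also the actin of vascular muscle and myofibroblasts, was at -0.86 ± 0.39 (adjusted p = 0.12), with 25092, 9956 and 28904 normalized counts in KO_DSS 1, 2 and 3 against 23226, 39503 and 39133 in KO_H2O 1, 2 and 3. Its f/f libraries had 11291.5, 15468.5 and 11731 in WT_DSS 1, 2 and 4, against 28194, 54196 and 9682 in WT_H2O 1, 2 and 3. Unlike Actg2, Acta2 overlapped between DSS and water in the knockout too.

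Myh11 had 35768, 16898 and 40274 normalized counts in KO_DSS 1, 2 and 3, against 44879.9, 45275 and 67545 in KO_H2O 1, 2 and 3. It had 19585, 24916 and 24318 in WT_DSS 1, 2 and 4, against 47536, 87735 and 14526 in WT_H2O 1, 2 and 3. The knockout groups did not overlap, as for Actg2, and WT_H2O 3 was the lowest of all 12 libraries for Myh11. The averaged difference was -0.81 ± 0.38 (SE, adjusted p = 0.132, limma). Myl9, the regulatory light chain of myosin, was at -1.05 ± 0.45 (adjusted p = 0.103) and Mylk, the kinase that phosphorylates it, at -0.58 ± 0.29 (adjusted p = 0.151). Ppp1r12b, a targeting subunit of myosin phosphatase, was at -0.70 ± 0.32 (adjusted p = 0.128), and Ppp1r14a, an inhibitor of that phosphatase, at -0.49 ± 0.32 (adjusted p = 0.274).

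The proteins that decorate the thin filament were divided in sign. Cnn1 (calponin 1) was at -0.68 ± 0.58 and Tagln at -0.71 ± 0.48, whereas Cald1 (caldesmon) was at 0.27 ± 0.41 and the tropomyosin gene Tpm2 at 0.12 ± 0.39, with adjusted p between 0.284 and 0.849 in limma. Cnn1 had the widest range on water, at 14246, 33385 and 1953 normalized counts in WT_H2O 1, 2 and 3, a log2 span of 4.09 within 1 group. Cald1 had 6748, 4519 and 16677 in KO_DSS 1, 2 and 3, against 3774, 4993 and 7569.7 in KO_H2O 1, 2 and 3. Without WT_H2O 3 the averaged values of Cald1 and Tpm2 turned to -0.06 and -0.24. Tpm1, the other tropomyosin gene of the set, was at -0.28 ± 0.27, and Lmod1 (leiomodin 1, which starts actin filaments) at -0.07 ± 0.36.

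**Figure D3:**
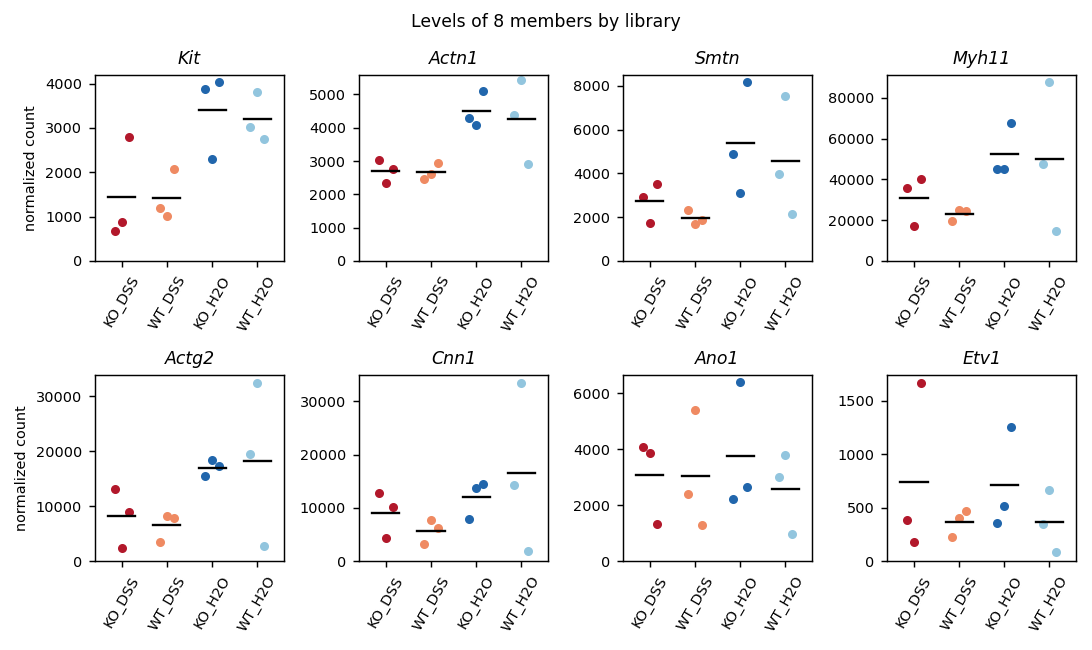
Normalized counts (y axis, from 0) of 8 genes in each library by group (x axis), with 1 point a library and a line at the group mean. For Kit the WT_H2O points lie between 2747 and 3816, whereas for Cnn1 they lie between 1953 and 33385.

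Among filament and adhesion genes 1 of 12 passed, Actn1, and 9 of 12 had negative values. Flna (filamin A, an actin cross-linker of muscle and other cells) was at -1.01 ± 0.35 with adjusted p = 0.0517, just outside the threshold, and Pdlim7 (a PDZ and LIM domain protein) at -0.90 ± 0.32 with adjusted p = 0.0573 (limma). Des was at -0.30 ± 0.47, with 23478, 12036 and 23635 normalized counts in KO_DSS 1, 2 and 3, against 17944, 21414 and 31884 in KO_H2O 1, 2 and 3. In f/f littermates it had 14512, 14637 and 17526 in WT_DSS 1, 2 and 4, against 26593, 54902 and 4755 in WT_H2O 1, 2 and 3. Vcl (vinculin, which ties actin to adhesion sites) spanned only 3631 to 6002 normalized counts over the 12 libraries and differed by 0.07 ± 0.16, with a 95% interval of -0.29 to 0.42. Pdlim3 (another PDZ and LIM domain protein) was at -0.80 ± 0.35 and Synm (synemin, a partner of desmin) at -0.27 ± 0.46. Pgm5 (aciculin) was at -0.26 ± 0.33, Csrp1 (a LIM domain protein) at -0.07 ± 0.36 and Synpo2 (myopodin) at 0.06 ± 0.42. Itga8 had 135, 235 and 26.4 normalized counts in WT_H2O 1, 2 and 3, and an averaged difference of 0.09 ± 0.51.

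Ion channel and regulatory genes had negative values in 5 of 5. Kcnma1 and Kcnmb1 encode the pore and the beta 1 subunit of the large-conductance potassium channel that relaxes smooth muscle. They were at -0.50 ± 0.27 and -0.18 ± 0.34. Cacna1c, the L-type calcium channel that admits calcium for contraction, was at -0.40 ± 0.42, and Casq2, a calcium store protein, at -0.68 ± 0.30. Myocd had 340.2, 287 and 429 normalized counts in KO_DSS 1, 2 and 3, against 366, 381 and 814 in KO_H2O 1, 2 and 3. It had 198, 115 and 270.1 in WT_DSS 1, 2 and 4, against 317, 752 and 208 in WT_H2O 1, 2 and 3, and averaged -0.74 ± 0.34 (SE, adjusted p = 0.126). None of the 5 passed (limma, adjusted p from 0.110 to 0.728), and Casq2 alone had an unadjusted p under 0.05.

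The members' promoters were searched for the CArG box, the site of serum response factor, on both strands. The windows ran from 250 bases before to 50 after the RefSeq gene start (GRCm38.p6). Windows were found for 30 of 34 members, and 3 of the 30 genes held a box. Tagln, Myh11, Myocd and Actg2 had no window and were not searched. That was 4 of 38 member windows (10.5%), since a gene can have several starts, against 1.63% of all windows of that length. Ldb3 held it in 2 of its windows. For each gene 1 window with the match is shown, because it carries the match, which stands in capitals. A match is a description of letters, and a window without one says nothing about the factor. The members include contractile genes that the factor is known to switch on, so the higher share is no result about these libraries.
Myl9, chr2:156775214-156775513, plus strand: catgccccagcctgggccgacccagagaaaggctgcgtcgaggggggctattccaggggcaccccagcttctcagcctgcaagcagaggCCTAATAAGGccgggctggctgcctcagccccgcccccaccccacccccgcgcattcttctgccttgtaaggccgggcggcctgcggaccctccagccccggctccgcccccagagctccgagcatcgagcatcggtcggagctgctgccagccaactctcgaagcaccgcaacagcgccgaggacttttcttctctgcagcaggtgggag
Ldb3, chr14:34588632-34588931, minus strand: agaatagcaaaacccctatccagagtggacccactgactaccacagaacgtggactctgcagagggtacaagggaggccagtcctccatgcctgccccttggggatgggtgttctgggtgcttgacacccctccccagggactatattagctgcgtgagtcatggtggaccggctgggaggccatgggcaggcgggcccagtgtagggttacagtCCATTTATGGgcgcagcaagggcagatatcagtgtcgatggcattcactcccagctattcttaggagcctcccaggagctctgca
Vcl, chr14:20929148-20929447, plus strand: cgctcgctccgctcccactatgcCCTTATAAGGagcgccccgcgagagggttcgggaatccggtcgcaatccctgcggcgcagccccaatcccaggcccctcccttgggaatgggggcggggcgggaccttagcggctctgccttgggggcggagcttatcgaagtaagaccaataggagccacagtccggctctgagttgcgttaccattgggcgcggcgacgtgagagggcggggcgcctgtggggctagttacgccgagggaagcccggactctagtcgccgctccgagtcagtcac

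The box began 161 bases before the start in Myl9, 35 in Ldb3 and 227 in Vcl. The averaged DSS differences of these 3 genes, none of which passed, were -1.05 ± 0.45 for Myl9, -0.39 ± 0.28 for Ldb3 (a Z-disc protein) and 0.07 ± 0.16 for Vcl (SE).

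Kit (chromosome 5, 75574916 to 75656722, plus strand) encodes the receptor that maintains pacemaker cells and is also carried by mast cells. It had 666, 871 and 2803 normalized counts in KO_DSS 1, 2 and 3, against 3886, 2292 and 4036 in KO_H2O 1, 2 and 3. In f/f littermates it had 1183, 1023 and 2082 in WT_DSS 1, 2 and 4, against 3031, 3816 and 2747 in WT_H2O 1, 2 and 3. All WT_DSS libraries lay below all WT_H2O libraries, and in the knockout KO_DSS 3 overlapped the water range. The averaged log2 difference was -1.35 ± 0.33 (SE, adjusted p = 0.0122, limma). Kit passed without any 1 of the 12 libraries (adjusted p from 0.00143 to 0.0349, log2 difference from -1.67 to -1.15).

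Kit departed from the muscle genes in WT_H2O 3. There it stood 0.44 above its own 12-library mean on the log2 scale, where the muscle genes averaged -1.15 against theirs. Ano1 and Etv1 did not share this, and were low there with the muscle genes, at -1.47 and -2.26 against their own means. The log2 range of Kit within WT_H2O was 0.47, against a median of 2.11 for the muscle genes. In KO_DSS the range of Kit was instead the wider one, at 2.07 against a median of 1.34. In KO_DSS 1 Kit departed the other way, at -1.60 where the muscle genes averaged 0.04. Of the mast cell markers, 0 of the 4 tested fell. The 9 of 11 markers in the table summed to 0.822 to 12.8 FPKM in KO_DSS against 0.186 to 1.28 in KO_H2O, and to 4.22 to 6.54 in WT_DSS against 0.425 to 1.05 in WT_H2O. Mcpt4 was at 0 in every library except KO_DSS 2. Hdc, the histamine-forming enzyme, rose by 2.54 ± 0.62 (adjusted p = 0.0122, limma), and was the 1 of 4 tested mast cell markers to pass. The part of mast cells in the Kit values was not tested. Kitl, the ligand of Kit, differed by -0.06 ± 0.22 (adjusted p = 0.851).

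Ano1 and Etv1 did not pass. Ano1 had 4089, 3849.5 and 1318 normalized counts in KO_DSS 1, 2 and 3, against 2222, 6389 and 2641 in KO_H2O 1, 2 and 3. It had 2402, 5398 and 1286 in WT_DSS 1, 2 and 4, against 2996, 3791 and 967 in WT_H2O 1, 2 and 3. The groups overlapped throughout, and the averaged difference was -0.04 ± 0.47 with a 95% interval of -1.06 to 0.98 (limma). Ano1 is also made by epithelial cells, so in whole colon it is no pure pacemaker measure. Etv1, a transcription factor of pacemaker cells, had 382, 175 and 1664 in KO_DSS 1, 2 and 3, against 358, 519 and 1256 in KO_H2O 1, 2 and 3. It had 226, 405 and 465 in WT_DSS 1, 2 and 4, against 344, 669 and 84.9 in WT_H2O 1, 2 and 3. Its averaged difference was 0.01 ± 0.60, with a 95% interval of -1.30 to 1.32.

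Within each genotype no member passed. In the knockout 0 of 34 passed, where 5.71% of all genes fell and 5% rose (limma). At an unadjusted p under 0.05, 1 of 31 muscle genes was lower, against 16.6% of all genes. Actn1 was at -0.73 ± 0.23 (adjusted p = 0.0617) and Kit at -1.49 ± 0.47 (adjusted p = 0.0616). The groups did not overlap for 6 muscle genes, all lower on DSS, Actg2, Myh11, Flna, Actn1, Pdlim7 and Casq2, which is 19.4% against 16.7% of all genes. In f/f littermates 0 of 34 passed, where 2.58% of all genes fell and 2.16% rose. At an unadjusted p under 0.05, 2 of 31 muscle genes were lower, against 12.9% of all genes, and for 0 of 31 did the groups stand apart, while 17.2% of all genes had all DSS libraries below all water libraries. WT_H2O 3 was the lowest water library for 31 of 31 muscle genes, so 1 library bore on all of them in the count of groups apart. Actn1 was at -0.63 ± 0.23 (adjusted p = 0.124), Smtn at -1.04 ± 0.45 (adjusted p = 0.182) and Kit at -1.22 ± 0.47 (adjusted p = 0.138). The median over the muscle genes was -0.50 in the knockout and -0.48 in f/f mice, and the value in f/f mice was -1.03 without WT_H2O 3 and -0.12 without WT_H2O 2. The knockout median was -0.22 without KO_DSS 2, with 22 of 31 negative, and -0.26 without KO_H2O 3, with 24 of 31 negative, while it was -0.74 without KO_DSS 3. Without WT_H2O 3, Actn1 passed in the knockout (adjusted p = 0.0369, limma, against 5.05% of all genes that fell). That library is not part of the knockout difference, which stayed at -0.73, and only the SE fell, from 0.23 to 0.19.

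Knockout and f/f colons were then compared to ask whether loss of Glul in myeloid cells changed the muscle coat. None of the 34 members passed on DSS (adjusted p at least 0.960, 0 at an unadjusted p under 0.05) or on water (adjusted p = 1, 1 at an unadjusted p under 0.05), and 0% of all genes passed in either. The share of all genes at an unadjusted p under 0.05 was 5.22% on DSS and 3.25% on water. On DSS 28 of 31 muscle genes had positive differences, against 48.8% of all genes, with a median of 0.37. On water 28 of 31 did, against 49.2% of all genes, with a median of 0.30. The muscle genes moved together from library to library, so they are not 31 separate observations. The water direction rested on WT_H2O 3: without it 24 of 31 were negative with a median of -0.23, and without WT_H2O 2 the median was 0.93. It was 0.11 without KO_H2O 3, 0.52 without KO_H2O 1 and 0.48 without WT_H2O 1. On DSS the median was 0.08 without KO_DSS 3 and 0.72 without KO_DSS 2. Itga8 was the member with the unadjusted call, at 176, 468 and 500.3 normalized counts in KO_H2O 1, 2 and 3, against 135, 235 and 26.4 in WT_H2O 1, 2 and 3 (log2 difference 1.86 ± 0.72, SE). Myocd was the 1 muscle gene with all KO_DSS libraries above all WT_DSS libraries (0.92 ± 0.48, adjusted p = 0.960), 3.23% of the muscle genes against 2.99% of all genes.

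The DSS effect itself did not differ detectably between genotypes. In the interaction fit 0 of 34 members passed, and 0 had an unadjusted p under 0.05 (limma), against 0% and 2.75% of all genes. The median interaction over the muscle genes was -0.01, or 0.60 without WT_H2O 3 and -0.39 without WT_H2O 2. It was 0.34 without KO_DSS 2, 0.21 without KO_H2O 3 and -0.22 without KO_DSS 3, so its sign rested on single libraries. For Kit it was -0.27 ± 0.66 with a 95% interval of -1.72 to 1.18, and for Actn1 -0.11 ± 0.33 with an interval of -0.82 to 0.61. With 3 libraries a group those intervals are wide, and any difference between genotypes inside them stays compatible with the data.

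**Figure D4:**
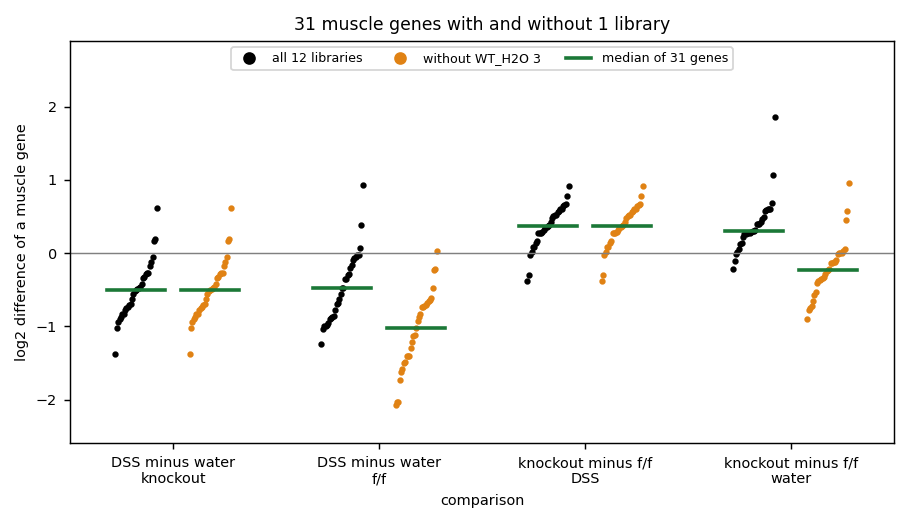
Log2 difference of each of the 31 muscle genes (points, y axis) in 4 comparisons (x axis), from all 12 libraries in black and without WT_H2O 3 in orange, with medians as green lines. The f/f median of DSS minus water is at -0.48 with the library and -1.03 without it, and the water median of knockout minus f/f is at 0.30 and -0.23.

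Other genes of muscle and of its neighbours were read from separate lists, whose counts stand against 14.6% of all genes that fell and 13% that rose in the averaged DSS comparison. Of 30 further contractile and cytoskeletal genes 6 rose and 6 fell (limma). Tpm3, a tropomyosin of non-muscle cells as well, rose by 1.35 ± 0.14 (adjusted p = 5.02e-04), with every DSS library above every water library, as for 6.24% of all genes. Dstn (destrin, which severs actin filaments) rose by 1.01 ± 0.20, while Jph2 (junctophilin 2, which couples the surface membrane to calcium stores) was at -1.97 ± 0.35 and Cnn2 (calponin 2) at -0.95 ± 0.20, both lower.

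Receptors, channels and transcription factors of muscle were read in the same way. Of 13 receptor genes 3 fell and 0 rose, Agtr1a (angiotensin receptor, -1.38 ± 0.32), Oxtr (oxytocin receptor, -2.97 ± 0.74) and Chrm3 (the muscarinic receptor that drives contraction, -1.69 ± 0.47). The estimate for Oxtr was more negative in the knockout (interaction -3.65 ± 1.48, unadjusted p = 0.0299, limma, the 1 of 13 under 0.05). That interaction did not pass after adjustment. Of 17 ion and calcium handling genes 3 fell and 1 rose. Among them Cacna1h, a T-type calcium channel, had 837, 334 and 756 normalized counts in KO_DSS 1, 2 and 3, against 4743, 1144 and 4804 in KO_H2O 1, 2 and 3. In f/f mice it had 638, 551 and 869 in WT_DSS 1, 2 and 4, against 2299.8, 2920.1 and 1782 in WT_H2O 1, 2 and 3, so that every DSS library lay below every water library, as for 6.58% of all genes (-2.04 ± 0.37, adjusted p = 0.00299). Itpr1 (a calcium release channel, -0.66 ± 0.18) was also lower, and Stim1 (a calcium store sensor) was higher at 0.63 ± 0.19. Of 15 transcription factors 5 fell and 0 rose. Srf, the partner of myocardin, fell by 0.77 ± 0.19 (adjusted p = 0.0139), and Hopx (-1.33 ± 0.28), Foxf2 (-1.39 ± 0.33), Nfatc4 (-0.95 ± 0.30) and Tbx2 (-0.66 ± 0.22) were also lower on average over genotypes. In the interaction fit Tbx2 was at -1.48 ± 0.44 (unadjusted p = 0.00594, limma), the 1 of 15 under 0.05. Its DSS estimate was thus more negative in the knockout than in f/f mice, though the interaction did not pass after adjustment.

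Of 12 genes of the dystrophin complex, which anchors muscle fibres to the matrix, 3 fell and 0 rose, among them Sgca (-3.32 ± 0.88) and Utrn (-0.40 ± 0.14). Of 11 further genes tied to pacemaker cells or to the neighbouring Pdgfra cells 4 fell and 2 rose. Gpr20 was at -0.93 ± 0.19, Slc12a2, a chloride importer that epithelium also carries, at -1.01 ± 0.23, and Hcn2, a pacemaker channel, at -1.96 ± 0.45. Cacna1h was the other gene that fell. Thbs4, a matrix protein, rose by 2.74 ± 0.86 and the gap junction gene Gja1 by 0.80 ± 0.27. Of 10 vascular mural cell markers 3 fell and 0 rose, Notch3 (-1.86 ± 0.25), Cspg4 (-1.93 ± 0.41) and Pdgfrb (-0.83 ± 0.27), while 0 of 14 fibroblast markers and 0 of 17 neuron and glia markers passed (limma, with 5 and 1 lower at an unadjusted p under 0.05). Of 14 table entries for 13 leukocyte markers (Itgam has 2) 6 rose and 0 fell, of 12 endothelial markers 2 fell and 0 rose, and of 15 epithelial markers 2 rose and 2 fell. Mesothelial markers gave 0 of 9 (0 at an unadjusted p under 0.05), and of 8 tested skeletal muscle markers 1 fell. The part of these cells in the values above was not tested.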

How the data were processed

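Colon RNA of 12 libraries in 4 groups was sequenced on an Illumina HiSeq instrument, per the labels' protocols. The deposited main table holds log2 normalized counts, per the labels. Its values have the form log2(scaled reads + 1), since within a tolerance of 0.01 each is a whole multiple of 1 read, which gave the reads per library. A second deposited table holds log2(FPKM + 1), used for levels between genes and as an alternative. The submitters' processing notes list STAR, GRCm38 and mm10 without a role. The counter, its strand setting and the annotation are not stated in the sources used here. A further FPKM table, with 4 columns that match no sample label, was not used.

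The 23263 genes averaging 10 or more normalized counts were kept and fitted with limma 3.58.1 in R 4.3.3 (group means, eBayes with trend, all 12 libraries in 1 fit, 8 residual and 3.86 prior degrees of freedom). P-values were adjusted by Benjamini-Hochberg over all tested genes within a comparison. Log2 differences carry SEs, are on the log2(normalized count + 1) scale and understate changes of low genes. Coordinates come from GENCODE M21 (GRCm38), in which 19 of 34 members overlap another gene, such as Tagln with Pcsk7 and Kcnmb1 with Kcnip1, and are uncertain to that extent. Sequences come from RefSeq (GRCm38.p6). Named genes are all members, Glul, and up to 4 genes of each other list by the smallest p in the averaged DSS comparison, plus further genes that passed in short lists, chosen after their values were seen. Some genes and counts of the other lists are not reported here. Members and lists were chosen with earlier results of these data known. Alternatives changed the filter, the pseudocount (8), the scaling, the table, the samples in the fit, weights and the replicate block, and left out each library in turn.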

Additional observations from a re-analysis of the deposited data

How the results depend on the processing

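In the averaged DSS comparison 2 of 31 muscle genes passed with a pseudocount of 8, with upper-quartile scaling and with the FPKM table, and 3 with a minimum mean of 50. The count was 1 with no filter, 1 with the replicate block and 11 with array weights, where 9.30%, 11.6% and 19.6% of all genes fell, and it lay between 1 and 15 when each library was left out in turn. Kit, as the 1 pacemaker gene, passed in every one of these settings. With array weights 1 muscle gene passed for DSS within the knockout and 1 within f/f littermates, Actn1 in both, where 11.5% and 8.05% of all genes fell, and leaving out each library gave between 0 and 1 in the knockout and 0 in f/f littermates. The comparisons of genotypes and the interaction kept a count of 0 in each alternative run. The cause of the shifts with weights was not tested. For DSS averaged over genotypes Actn1 passed in every alternative run, and Smtn did not pass with no filter (adjusted p = 0.0559) or with the replicate block (adjusted p = 0.114). Libraries share only a number across groups: the deviations of same-numbered libraries correlated between -0.183 and 0.238, so no pairing was read from the numbers. Precision is limited by 3 libraries a group and by the within-group spread, whose median SD over the muscle genes was 0.70 in KO_DSS, 0.25 in WT_DSS, 0.42 in KO_H2O and 1.08 in WT_H2O on the log2 scale.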
